A study of Homo sapiens with 20 samples.

Results

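The wild-type (WT) HCT-116 libraries treated with oxaliplatin (OXPT) were compared between HDAC4 silencing and the silencing control: 4 of the 16 H3K27ac libraries with called regions. HCT-116 cells derive from a human colorectal carcinoma, and the series also holds a line made from them without FBXW7 (FBXW7 KO). WT cells carried esiCT, a control pool of enzymatically made small interfering RNAs, or esiHDAC4, a pool against HDAC4, for 48 h, and all cells of these 4 libraries received 50 µM OXPT for the last 24 h. Each side had replicate A and replicate B. The labels state that 3 experiments were combined and do not tie them to the letters, so a letter may be a pool and p-values cover only the spread between these libraries. Chromatin immunoprecipitation and sequencing (ChIP-seq) recorded acetylation of histone H3 at lysine 27. The 4 peak lists, on chromosomes 1 to 22 and X, were merged where peaks overlapped by at least 1 bp, which gave 37190 peak regions, and the 4 lists of super-enhancers (SEs) gave 943 SE regions in the same way. A region is called gained here when both esiHDAC4 libraries and neither esiCT library list it, and lost in the opposite case. These words describe calls, not a tested change of signal. There were 840 gained and 389 lost peak regions, and 63 gained and 5 lost SE regions.

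HDAC4 is a class IIa histone deacetylase: it has little catalytic activity of its own, binds transcription factors of the MEF2 family and brings corepressor complexes that hold HDAC3 to their sites. H3K27ac marks active promoters and enhancers, and SEs are long clusters of such enhancers that often lie near genes of cell identity. Oxaliplatin is a platinum drug that crosslinks DNA and activates p53, and FBXW7 is the substrate-recognition subunit of an SCF ubiquitin ligase.

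The lists carried no read totals, but fold and p-value of a peak together gave its summit reads and its background. The lowest background that recurred among the peaks, which rises with depth, was 2.1 reads in esiCT replicate A, 1.97 in esiCT replicate B, 2.2 in esiHDAC4 replicate A and 2.61 in esiHDAC4 replicate B, and the lowest fold called at that background was 3.22, 3.36, 3.12 and 3.04. Start sites of 4 of 8 epithelial and colon markers held a peak in all 4 libraries, those of 6 fibroblast and 4 endothelial markers in no library, 1 of 6 leukocyte markers in esiHDAC4 replicate A, and 1 of 4 neuronal markers in esiCT A and esiHDAC4 B. Of all 19962 protein-coding genes, 1859 had a start-site peak in all 4 libraries and 13.7% to 40.6% in each one. At HDAC4 itself, within 10 kb of the gene, 11 and 4 peaks were called with esiCT and 9 and 11 with esiHDAC4 in replicates A and B. Interference acts on the transcript, so acetylation at the gene is no check of the silencing, and HDAC4 RNA or protein was not analysed here.

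The first question was whether HDAC4 silencing changed how many regions were called under OXPT. Replicates A and B had 24346 and 10562 peaks with esiCT and 20136 and 19352 with esiHDAC4. The esiCT libraries thus lay on both sides of the esiHDAC4 libraries. The log2 ratio of peak numbers, esiHDAC4 to esiCT, was -0.27 in A and 0.87 in B, with a mean of 0.30 ± 0.81 (SD, n = 2 pairs). The two-sided exact permutation test within letters gave p = 1, and the smallest p it can give here is 0.5. SEs numbered 394 and 284 with esiCT and 721 and 453 with esiHDAC4, so both esiHDAC4 libraries stood above both esiCT libraries. The log2 ratios were 0.87 and 0.67, mean 0.77 ± 0.14 (SD, n = 2 pairs), with p = 0.5 in the same exact test.

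SE lengths differed between the lists. The SEs had a median length of 19.998 kb and 15.1 kb with esiCT and of 11.2 kb and 14.7 kb with esiHDAC4. In esiHDAC4 replicate A, 22.6% of SEs were under 5 kb and the shortest spanned 0.28 kb, against 0.51% under 5 kb in esiCT replicate A. SEs under 5 kb made up 5.63% of the list in esiCT replicate B and 8.17% in esiHDAC4 replicate B. The SEs covered 9.67 Mb and 5.64 Mb with esiCT and 10.9 Mb and 8.96 Mb with esiHDAC4. Of SEs of at least 10 kb, a limit chosen after the lists were seen, there were 342 and 197 with esiCT and 389 and 315 with esiHDAC4. Their log2 ratios were 0.19 in A and 0.68 in B.

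**Figure D1:**
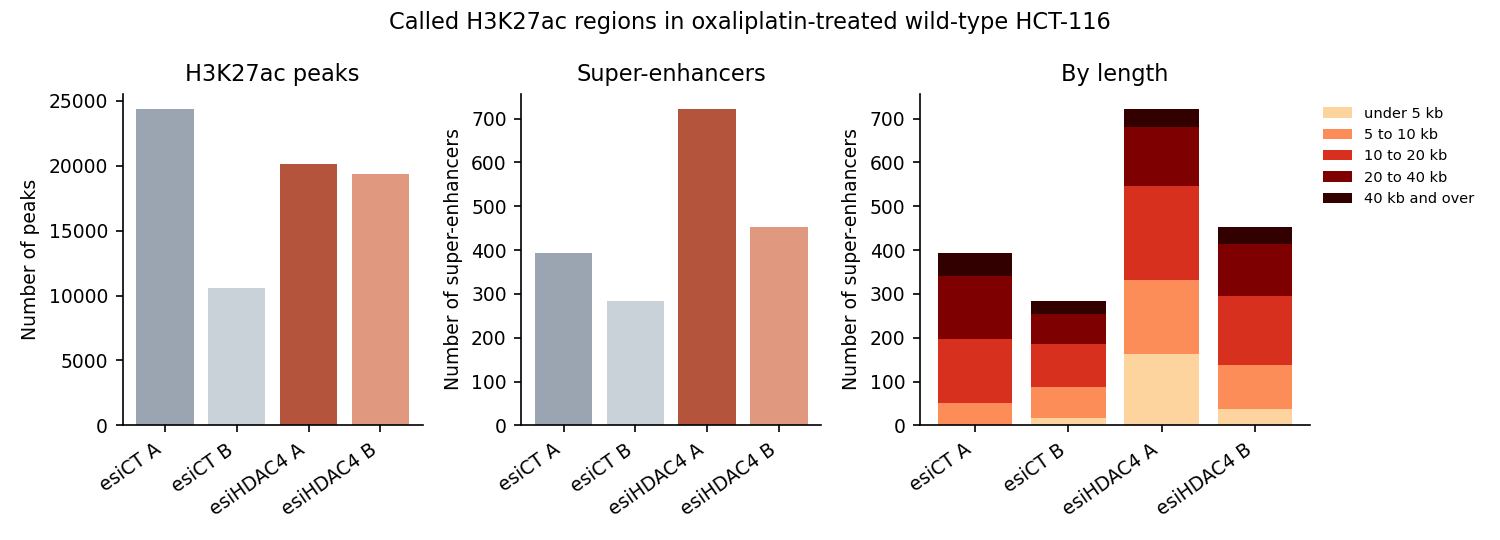
Number of H3K27ac peaks (left), number of SEs (middle) and the same SEs split by length in kb (right) in the 4 oxaliplatin-treated WT libraries. Bars are single libraries; the 721 SEs of esiHDAC4 replicate A hold the most SEs under 5 kb, and esiCT replicate B has the fewest peaks at 10562.

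Among the 37190 merged peak regions, 20677 were called in 1 library and 4305 in all 4. The 840 gained regions were 2.26% of all merged regions and the 389 lost regions were 1.05%. These percentages are the background for every count of gained or lost regions below. More regions, 3626, were called in both A libraries and neither B library than were gained. In the other direction, 672 were called in both B libraries and neither A library, fewer than the 840 gained. The 4 lists differed in length, and these letter counts were not repeated at equal length, so letter and list length cannot be told apart here. With all 4 lists shortened to the length of the shortest, esiCT replicate B, 601 regions were gained and 443 lost. Leaving out a library also changes the rule, since its side then needs 1 call, or 1 absence, instead of 2. With esiCT replicate A as the only control, 1281 regions were gained and 8832 were lost. With esiCT replicate B as the only control, 4388 were gained and 2377 were lost. With only peaks of a −log10 q of at least 10, which left 189 peaks in esiCT replicate B and 774 to 905 in the other 3 libraries, 109 were gained and 6 were lost.

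Gained and lost regions had low summits. The summit fold is the ratio of the reads at a peak's highest point to its local background. Gained regions had a median fold of 3.73 in esiHDAC4 replicate A and 3.66 in replicate B, and lost regions had 3.78 and 3.77 in esiCT replicates A and B. Regions called in all 4 libraries had medians of 4.67, 4.37, 4.59 and 4.49, in the order esiCT A, esiCT B, esiHDAC4 A and esiHDAC4 B. The lower of the 2 folds of a gained region ran from 1.64 to 5.54 with a median of 3.36, and 414 of 840 exceeded 3.36, the lowest fold called at that background in esiCT replicate B. For lost regions it ran from 1.79 to 5.39 with a median of 3.44, and 291 of 389 exceeded the 3.12 of esiHDAC4 replicate A. The weaker of the 2 calls had a median −log10 q of 2.81 in gained and 2.43 in lost regions, and the weakest calls stood at 1.33 in both. A peak of the other side was often near. Of the gained regions, 44.9% lay within 1 kb of an esiCT replicate A peak and 18.1% within 1 kb of an esiCT replicate B peak, and 31.1% and 30.3% of lost regions lay as near to a peak of esiHDAC4 replicates A and B.

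**Figure D2:**
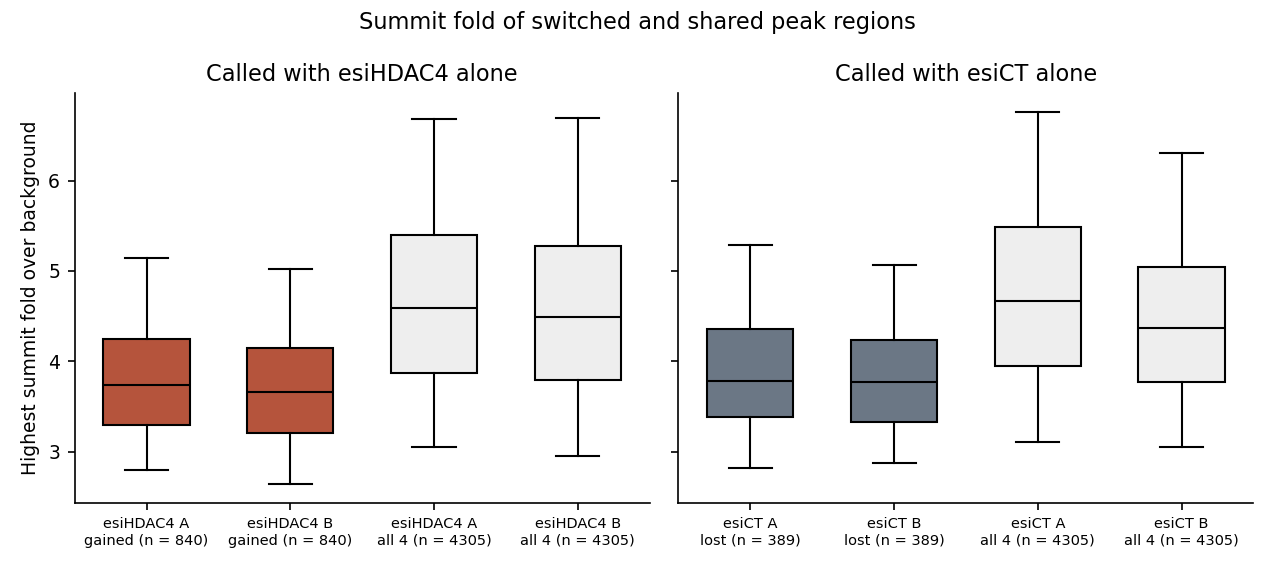
Highest summit fold, as a linear ratio over background, in the 840 gained (left) and 389 lost (right) peak regions and, in grey, in the 4305 regions called in all 4 libraries. Boxes show quartiles with the median and whiskers the 5th and 95th percentiles; the switched regions have medians of 3.66 to 3.78 and the shared regions 4.37 to 4.67.

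Both sets had much the same position relative to genes. Of gained regions 271 (32.3%) lay within 1 kb of the start of a protein-coding gene, 328 (39.0%) elsewhere within a gene and 241 (28.7%) between genes. Of lost regions the counts were 131 (33.7%), 144 (37.0%) and 114 (29.3%). Start-site regions were 37.9% of those called in all 4 libraries and 30.1% of all merged regions. The median width was 638 bp for gained and 649 bp for lost regions, against 1653 bp for regions called in all 4. Distal regions had their nearest start at a median of 30.7 kb when gained and 35.8 kb when lost.

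Of the gained start-site regions, that with the highest lower fold lay at DPY19L3, which encodes a C-mannosyltransferase of the endoplasmic reticulum (chr19:32404812-32406017, hg38). Its summit fold was 4.78 in esiHDAC4 replicate A and 5.54 in replicate B. EIF4E, the cap-binding protein that starts translation, followed (chr4:98929430-98930689) with 4.71 and 5.02. ICE1, a subunit of the little elongation complex that promotes transcription of small nuclear RNA genes, had 5.18 and 4.71. The other 7 of the 10 highest were at CNTNAP3C, at IL23A and PAN2, at BEND6 and DST, and at PAXIP1, ZNF827, ENTPD6, and DAO and SSH1. PAXIP1, which works in DNA repair and in a histone methyltransferase complex, had folds of 4.53 and 4.69. ZNF827, a zinc finger protein, had 4.67 and 4.51. CNTNAP3C has near-identical paralogs, so its reads may be shared among copies.

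Gained distal regions were led by an intron of RASA4 on chromosome 7, nearest to the start of ENSG00000270249, with folds of 5.94 and 5.54. RASA4 has near-identical copies, so reads there may be shared. An intronic region of ST6GALNAC5, a sialyltransferase gene, had 6.08 and 5.18 (chr1:76998946-76999581). A region inside THRA and nearest to MED24, a Mediator subunit, had 5.05 and 5.58, and one inside RALGDS, an exchange factor for Ral GTPases, had 4.91 and 4.98. HNRNPU, an RNA-binding protein of the nuclear matrix, held one 1.59 kb from its start with 4.91 and 5.90. The remaining 5 were nearest to CYP4F2, DIPK2B, PPA1, TNFRSF25 and ATP6V0D2.

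The lost start-site regions with the highest lower fold were at PABPC1L, a poly(A)-binding protein, with 7.099 in esiCT replicate A and 5.39 in replicate B (chr20:44910416-44911453), and at KRTAP4-7, with 5.88 and 4.80. ATRN, ZNF181, FNDC3A, MAPKAP1, TMEM248, PEX19 with ENSG00000258465, RBM3 and RMND5B made up the rest. MAPKAP1, a subunit of the mTORC2 kinase complex, had 4.42 and 5.44. RBM3, a cold-inducible RNA-binding protein, had 5.16 and 4.38. The lost distal regions were led by an intron of MRTFB, a coactivator of serum response factor, with 4.68 and 5.30 (chr16:14095465-14096064). Next came FCSK (fucokinase) with 4.63 and 4.71, a region 60.5 kb from ERRFI1, which encodes an inhibitor of EGFR, with 4.61 and 4.93, and an intron of ACTN1, an actin crosslinker, with 4.57 and 4.98. KLF3, ARHGAP23, PPP1R14D, DLX2 and ZNF33B were among the nearest genes of the other 6. The ZNF33B region, 2032 kb from the start of that gene on chromosome 10, had 4.36 and 6.37.

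Windows of 150 bases around the highest summit are shown for some of these regions and for members of the HDAC4 and p53 gene groups that are described next, because they are the sites where calls switched. All lie outside annotated exons in GENCODE version 44, the sequence is the plus strand of hg38 from 5′ to 3′, and capitals mark matches, on either strand, to one of 9 motifs. Gained windows are those at ST6GALNAC5 (chr1:76999195-76999344), HDAC9 (chr7:18420933-18421082), MEF2A (chr15:99453082-99453231) and CDKN1A (chr6:36680965-36681114).
ST6GALNAC5, gained: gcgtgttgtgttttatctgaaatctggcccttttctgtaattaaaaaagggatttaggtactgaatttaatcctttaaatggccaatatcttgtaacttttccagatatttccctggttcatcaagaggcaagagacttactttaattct
HDAC9, gained: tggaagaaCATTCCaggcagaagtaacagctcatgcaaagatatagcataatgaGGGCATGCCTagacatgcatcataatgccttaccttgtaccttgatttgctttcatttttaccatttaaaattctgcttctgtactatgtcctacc
MEF2A, gained: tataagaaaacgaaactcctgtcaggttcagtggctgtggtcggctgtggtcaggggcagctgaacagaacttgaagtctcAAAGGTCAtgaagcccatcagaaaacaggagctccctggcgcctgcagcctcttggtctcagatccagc
CDKN1A, gained: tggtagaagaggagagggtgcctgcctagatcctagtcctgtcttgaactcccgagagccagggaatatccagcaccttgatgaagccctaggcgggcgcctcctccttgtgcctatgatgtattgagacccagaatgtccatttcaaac
Lost windows are those at MRTFB (chr16:14095597-14095746) and ERRFI1 (chr1:8086967-8087116).
MRTFB, lost: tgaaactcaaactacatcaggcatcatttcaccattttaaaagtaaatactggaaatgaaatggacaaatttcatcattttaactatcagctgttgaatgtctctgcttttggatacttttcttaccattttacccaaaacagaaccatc
ERRFI1, lost: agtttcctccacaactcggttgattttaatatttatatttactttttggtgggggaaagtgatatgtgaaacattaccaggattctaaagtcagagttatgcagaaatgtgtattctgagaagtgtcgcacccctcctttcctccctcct

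The motifs searched, on both strands, were TGANTCA for AP-1, TGTTTAC for FOXO, CTTTGAT for TCF and LEF, CCGGAAG for ETS, GGGCGGG for KLF and SP, GGAATG for TEAD, AAAGGTCA for NR4A, and the MEF2 motif and a single p53 decamer by their usual degenerate forms. In windows of 300 bases around the summit, AP-1 letters were in 7.74% of gained, 5.66% of lost, 7.39% of regions called in all 4 and 7.24% of all merged regions. MEF2 letters were in 6.67% of gained and 6.68% of lost regions, against 5.55% and 4.75%. The p53 decamer was in 9.40% and 11.8%, against 8.73% in both. TEAD letters, the shortest of the 9 motifs at 6 bases, were in 16.1% of gained and 14.1% of lost regions, against 14.8% and 14.7%. Median GC content was 48.0% in gained and 46.7% in lost windows. In the 6 windows shown, HDAC9 held a TEAD match and a p53 decamer and MEF2A an NR4A match, while the other 4 windows held none of the 9 motifs.

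Genes are assigned below to the nearest start, or to every start within 1 kb. Of 19962 protein-coding genes, 832 (4.17%) were assigned a gained and 401 (2.01%) a lost peak region. Genes with much intergenic space around them collect more regions, so a list's count is a description. Among 11 genes of the class IIa HDAC and MEF2 group, 5 were assigned gained regions and 0 lost ones. Among these were HDAC9, a class IIa relative of HDAC4, and the factors MEF2A, MEF2B and MEF2D. The HDAC9 region, in the gene and 334 kb from its start, had folds of 3.78 and 3.63 in esiHDAC4 replicates A and B. MEF2B, within 1 kb of its start, had 3.95 and 3.99, while another peak within 1 kb of that start had 4.76 in esiCT replicate A. The MEF2B region lay inside RFXANK and was also within 1 kb of the starts of BORCS8 and RFXANK. MEF2A had 3.30 and 3.32, and MEF2D had 2.58 and 3.998. At the start sites themselves, HDAC5 had a peak in all 4 libraries with folds of 5.01, 3.05, 3.96 and 5.27, and HDAC7, HDAC9 and MEF2C had no start-site peak in any library. The start site of HDAC4 had 1 peak, with a fold of 3.83 in esiHDAC4 replicate B.

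Genes activated by p53 were acetylated on both sides. Of 26, 14 had a start-site peak in all 4 libraries, and 23 and 16 had one with esiCT and 22 and 20 with esiHDAC4. Over all protein-coding genes the shares were 40.6% and 13.7% with esiCT and 34.0% and 26.9% with esiHDAC4. Gained regions were assigned to CDKN1A, the cyclin-dependent kinase inhibitor of p53 arrest, GDF15, a secreted stress factor, and BTG2, an antiproliferative factor. Lost ones were assigned to MDM2, the ligase that degrades p53, PPM1D, a phosphatase that ends the damage signal, and AEN, a nuclease of apoptosis. The CDKN1A region, 4.202 kb from the start, had 3.63 and 2.80, and the MDM2 region, 2.17 kb from the start, had 2.76 and 3.28 in esiCT replicates A and B. The start sites of both genes had peaks in all 4 libraries: 5.47, 4.45, 4.13 and 5.22 for CDKN1A, and 4.40, 4.49, 5.15 and 4.30 for MDM2, in the order esiCT A, esiCT B, esiHDAC4 A and esiHDAC4 B. The ranges of the 2 sides overlapped at both starts. GDF15, PPM1D and AEN also had start-site peaks in all 4 libraries, and BTG2 had one in esiCT replicate A (3.95) and in both esiHDAC4 libraries. Counted by any peak within 1 kb of the start, none of the 26 genes was gained or lost. In the BCL2 family, the start site of BBC3 (PUMA) had 6.73 and 3.35 with esiCT and 8.62 and 3.57 with esiHDAC4. PMAIP1 (NOXA) is the other BH3-only death gene of p53. The merged region over its start had 5.36 and 4.40 with esiCT and 4.61 and 3.78 with esiHDAC4. In esiHDAC4 replicate B, however, PMAIP1 had no start-site peak, so the 3.78 came from elsewhere in that region. Neither BBC3 nor PMAIP1 was assigned a switched region. BCL2L2 and BID were assigned gained regions at 11.9 kb and 68.2 kb, inside HOMEZ and BCL2L13, and HRK a lost region at its start, with 3.38 and 3.70.

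Of 16 immediate early and NR4A genes, IER5, KLF6 and NR4A1 were assigned gained regions and none lost ones. Over all protein-coding genes these shares were 4.17% and 2.01%, so few lost regions would be assigned to any list of 16. Counted by any peak within 1 kb of the start, none of the 16 was gained, and the NR4A1 start had a peak in esiCT replicate A (3.99). The NR4A1 region, in the gene and 1.495 kb from a start, had folds of 4.67 and 3.63, and the KLF6 region, 20.8 kb away, had 3.44 and 4.71. Among 14 AP-1 and ATF genes, FOSL2 was assigned 2 gained regions and 1 lost region, all in 1 stretch of its gene between 15.3 kb and 17.1 kb from the start. Of 18 intestinal lineage factors, KLF5 was assigned 2 gained regions about 280 kb from its start, while EHF and ELF3 were among those assigned lost ones. ELF3 had 3.93 and 3.28, and EHF 3.29 and 3.87 in esiCT replicates A and B.

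In the WNT group of 17, CCND1 (cyclin D1), with 4.46 and 3.58 at 2.18 kb, and CD44, with 4.09 and 5.15 at 108 kb, were assigned gained regions, and ZNRF3, a ligase that removes WNT receptors, a lost one. In the EGFR group of 11, the ligand BTC was assigned a gained and the inhibitor ERRFI1 a lost region. Of 17 genes of homologous recombination and excision repair, RAD51C, XRCC3 and XPA were assigned gained regions and ERCC4 a lost one. The RAD51C region had 3.57 and 3.73 across the start. At the XRCC3 start, esiCT replicate A also had a peak, of 5.48. NF-kB genes had CCL20 and TNFAIP2 on the gained and NFKBIA and TNFAIP2 on the lost side, of 13. Glycolysis genes had SLC2A1, the glucose transporter, on the gained and PFKP and SLC2A3 on the lost side, of 20. Of 16 epithelial genes CDH1 (through a region inside CDH3) and LAMB3 were on the gained side, of 11 TGF-beta genes SMAD3 was on both and TGFBR2 on the lost side, and of 14 YAP and TEAD genes there were 0 on either. Of 11 genes of the FBXW7 ligase and its substrates, FBXW7 and KLF5 were on the gained and CUL1 on the lost side. The FBXW7 region lay 278 kb from the start of the gene, with 4.16 and 3.28. The FBXW7 start site had a peak in esiCT replicate A (3.47) and in esiHDAC4 replicate B (4.06).

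SE regions were more often gained than lost. The 63 gained SE regions were 6.68% of the 943 merged SE regions, the 5 lost ones were 0.53%, and 151 were called in all 4 libraries. Another 58 were called in both A and neither B library, and 14 in both B and neither A library. Without esiCT replicate B, 86 SEs were gained and 65 lost, and without esiHDAC4 replicate A, 164 were gained and 27 lost. With SEs of at least 10 kb only, 23 were gained and 4 lost. Gained SE regions had a median length of 12.4 kb (3.30 to 55.2 kb), against 35.8 kb for those called in all 4. Of the 63, 13 touched a start site, 26 lay within genes and 24 between genes.

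The longest gained SE region lay in TTC34 with MMEL1 as nearest start (55.2 kb, chr1:2642675-2697863), followed by a region over JUND, an AP-1 subunit, and LSM4 (50.3 kb, chr19:18279058-18329314). A region of 42.0 kb lay in RBFOX3, 1 of 31.8 kb in PLEC (plectin) and 1 of 21.0 kb over AHNAK. RGS6, NFAT5, the osmotic stress factor, ACTR5 and ATXN7L3B were nearest to others of the 10 longest. Among list genes, gained SE regions were assigned to JUND, KLF5 (15.5 kb long, 26.5 kb from its start) and KLF6 (6.52 kb long, 19.8 kb away). Others were assigned to SMAD3 (10.4 kb long, 14.5 kb away) and ITGA6 (5.56 kb long). KLF5 is a transcription factor from the intestinal lineage list and an FBXW7 substrate, and SMAD3 carries the TGF-beta signal. The KLF6 peak region named above lies within the KLF6 SE region. The 5 lost SE regions included those in PTPN14, a phosphatase that restrains YAP (20.1 kb), and in AP1S3, nearest to SCG2 (28.0 kb). The rest lay in PPFIBP1, nearest to REP15 (16.2 kb), in YBX3 (7.90 kb), and on chromosome 5, 799 kb from the start of EMB (34.1 kb). In the chromosome 5 region the highest summit fold was 2.46 and 3.40 with esiCT and 1.60 and 2.60 with esiHDAC4.

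Gained SE regions already held peaks in the control. All 63 held at least 1 peak in esiCT replicate A and 59 did in esiCT replicate B. Peaks covered a median of 24.7% of their length in esiCT replicate A, 10.9% in esiCT replicate B, 24.7% in esiHDAC4 replicate A and 30.1% in esiHDAC4 replicate B. The esiCT A and esiHDAC4 A medians were equal to the first decimal, and esiCT B stood apart. The covered share was higher with esiHDAC4 in 34 of 63 regions in A and in 62 of 63 in B, while over all merged SE regions it was so in 429 and in 820 of 943. Both esiHDAC4 values exceeded both esiCT values in 22 of 63 (34.9%), against 33.1% of SE regions called in all 4 and 20.1% of all merged SE regions. At KLF5, peaks covered 12.7% and 8.66% with esiCT and 15.9% and 34.7% with esiHDAC4, without overlap of the sides. At KLF6 they covered 26.0% and 25.9% with esiCT and 31.1% and 49.1% with esiHDAC4, and the highest fold was 5.03 and 4.16 with esiCT and 5.79 and 6.04 with esiHDAC4. At JUND they covered 16.5% and 4.33% with esiCT and 14.2% and 11.6% with esiHDAC4, so that the sides overlapped. At SMAD3 the shares were 37.8% and 15.7% with esiCT and 37.7% and 30.1% with esiHDAC4, and these also overlapped. In the lost SE region of YBX3 peaks covered 55.1% and 47.3% with esiCT and 56.7% and 64.7% with esiHDAC4, which is higher with esiHDAC4 although the SE call went the other way.

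**Figure D3:**
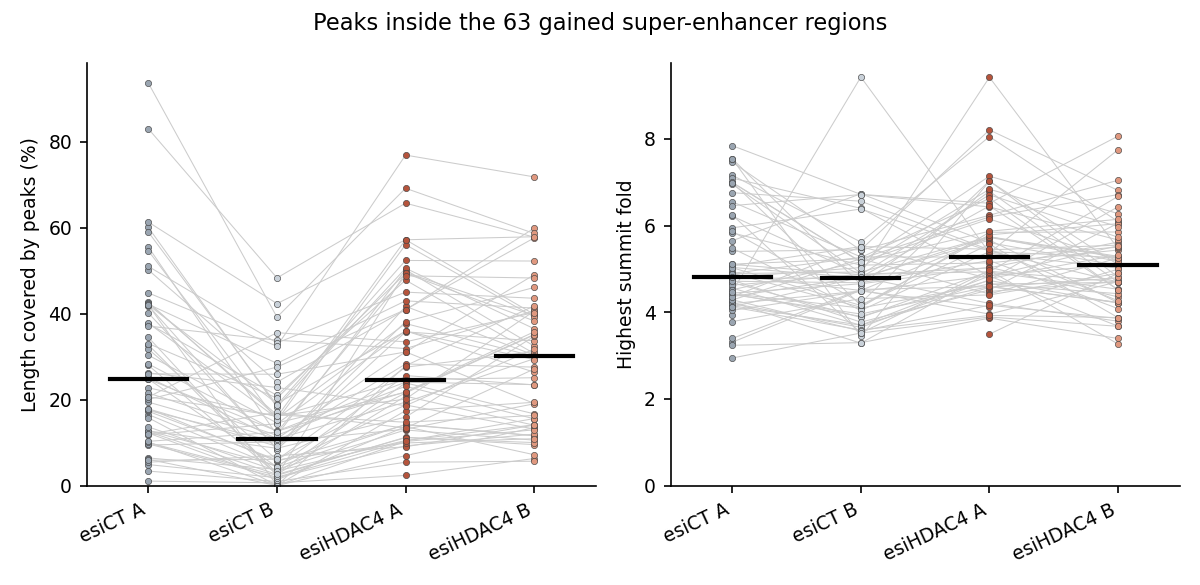
Share of length covered by peaks in % (left) and highest summit fold as a linear ratio (right) inside each of the 63 gained SE regions, in the 4 libraries. Points are regions joined by grey lines and black bars are medians; the median covered share is 24.7% in both replicate A libraries and 10.9% in esiCT replicate B.

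The other 12 libraries list many of the same regions. Untreated WT cells with esiCT called 76.2% (A) and 76.1% (B) of the gained peak regions and 68.4% and 64.3% of the lost ones. The same libraries called 59.0% and 52.7% of all merged regions, and 95.8% and 95.6% of regions called in all 4 OXPT-treated WT libraries. Of the merged regions, 55.6% were called in only 1 of those 4 libraries. Gained and lost regions needed calls in both libraries of a side, so their shares and those of all merged regions are not compared like for like. Untreated WT cells with esiHDAC4 called 51.2% and 72.1% of the gained and 38.6% and 63.0% of the lost regions, beside 41.9% and 51.1% of all merged regions. FBXW7 KO cells under OXPT called 55.2% and 16.4% of the gained regions with esiCT and 40.5% and 9.76% with esiHDAC4, beside 44.5%, 15.5%, 35.03% and 11.3% of all merged regions. Several of these shares are near that background, and the last is below it. Most gained peak regions were thus also called in untreated control cells. Gained SE regions were called in a median of 4 of the 12 other libraries. Of the 63, 21 were SEs in all 4 untreated WT libraries and 12 in none of these, and 7, among them those at RGS6, TXNRD2 and LBX1, were SEs in none of the 12. The SE region at AP1S3, though lost, was an SE in all 12. No test was run on these shares, since they move with the length of each list.

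**Figure D4:**
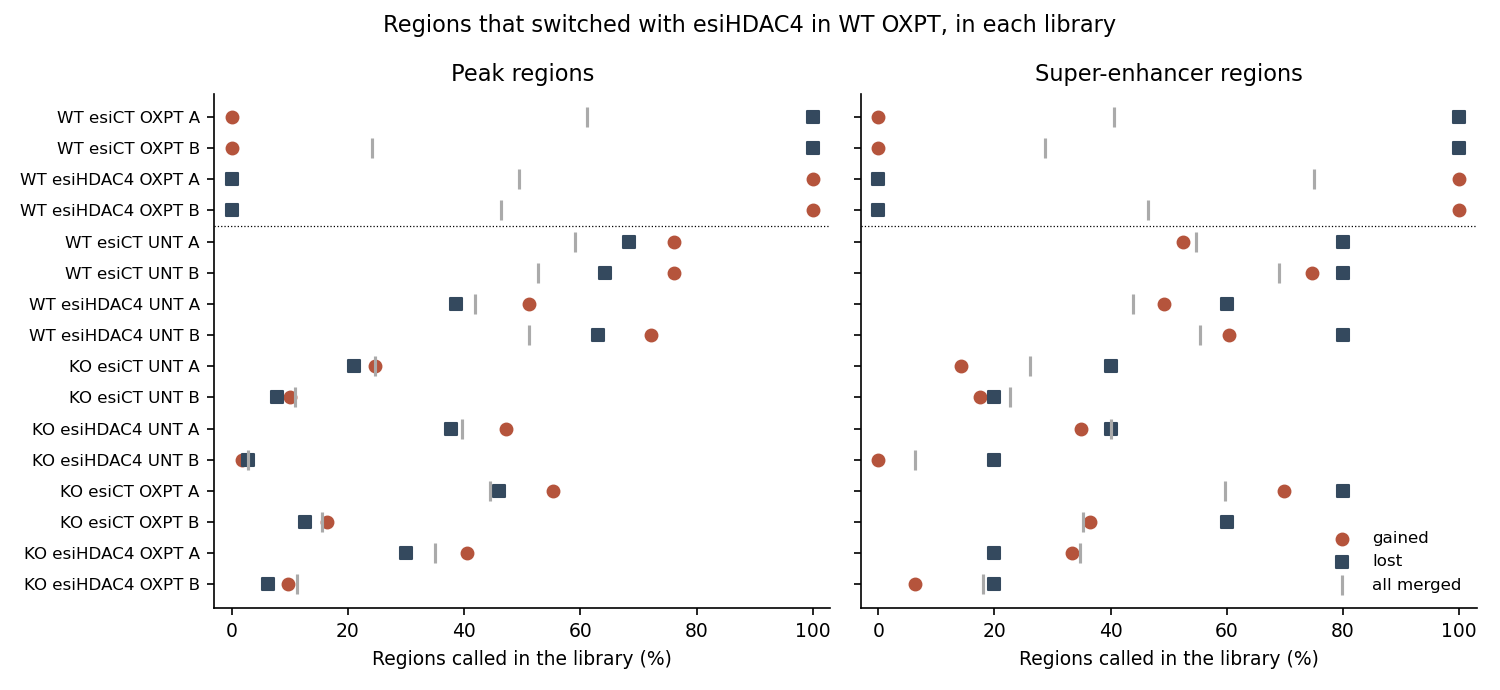
Percent of gained (circles), lost (squares) and all merged (bars) peak regions, left, and SE regions, right, that each of the 16 libraries calls. The 4 libraries above the dotted line chose the regions and stand at 0 or 100% by construction; among the others untreated WT esiCT calls 76.2% and 76.1% of gained peak regions, and the lost SE set has 5 regions.

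Summit folds could be tested where all 4 libraries had a call. Of 4305 such regions, 0 (0%) differed between esiHDAC4 and esiCT at an adjusted p below 0.05 in limma with the letter as block, and the smallest adjusted p was 0.59. At an unadjusted p below 0.05 there were 255 (5.92%), 131 higher and 124 lower with esiHDAC4. Each region had 1 residual degree of freedom, so its spread rested mainly on the estimate shared by all regions. With a spread of 0.25 (root mean square residual SD, log2), differences of 0.95 and less did not pass the threshold. A region had to be called in all 4 libraries to enter, so a region whose acetylation disappeared on one side is not among them. By class, 43 start-site regions were higher and 49 lower at the unadjusted limit, out of 1633, with 45 and 40 of 1494 within genes and 43 and 35 of 1178 between genes.

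The higher regions with the smallest p, none of which passed the adjusted threshold, included one within PTP4A1, a phosphatase gene, at the start of ENSG00000285976. It had folds of 4.67 and 4.50 with esiCT and 7.50 and 7.44 with esiHDAC4, a log2 difference of 0.70 ± 0.21 (SE, limma adjusted p = 0.59). MMP20 had 4.08 and 2.91 with esiCT and 5.05 and 7.42 with esiHDAC4. A region 25.3 kb from KLF6 had 3.23 and 3.87 with esiCT and 5.79 and 6.04 with esiHDAC4, a log2 difference of 0.73 ± 0.24 (SE). It lies within the gained KLF6 SE region, and its esiHDAC4 folds are the highest folds given for that SE region above. A region in CAV2, which encodes a caveolin, had 3.77 and 4.71 with esiCT and 6.47 and 7.02 with esiHDAC4. Others were at or nearest to MAN1B1, MTAP, SEPTIN9, COX20 and MALL.

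Among the lower regions, the start of RPL7L1, a ribosomal protein relative, had 7.11 and 5.12 with esiCT and 3.23 and 3.06 with esiHDAC4, a log2 difference of -0.95 ± 0.24 (SE, limma adjusted p = 0.59). A region in HMGA1, an architectural chromatin protein, nearest to the start of SMIM29, had 4.63 and 4.16 with esiCT and 2.37 and 2.48 with esiHDAC4. TNIK, a kinase of the WNT pathway, had 6.50 and 6.34 with esiCT and 3.44 and 4.35 with esiHDAC4. At ARF1 the sides overlapped, with 9.58 and 4.22 with esiCT and 5.04 and 2.80 with esiHDAC4. PLGLB2, FOXD4L6, SLC4A3, PRCC, PCDH7 and ENSG00000284188 completed the 10.

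**Figure D5:**
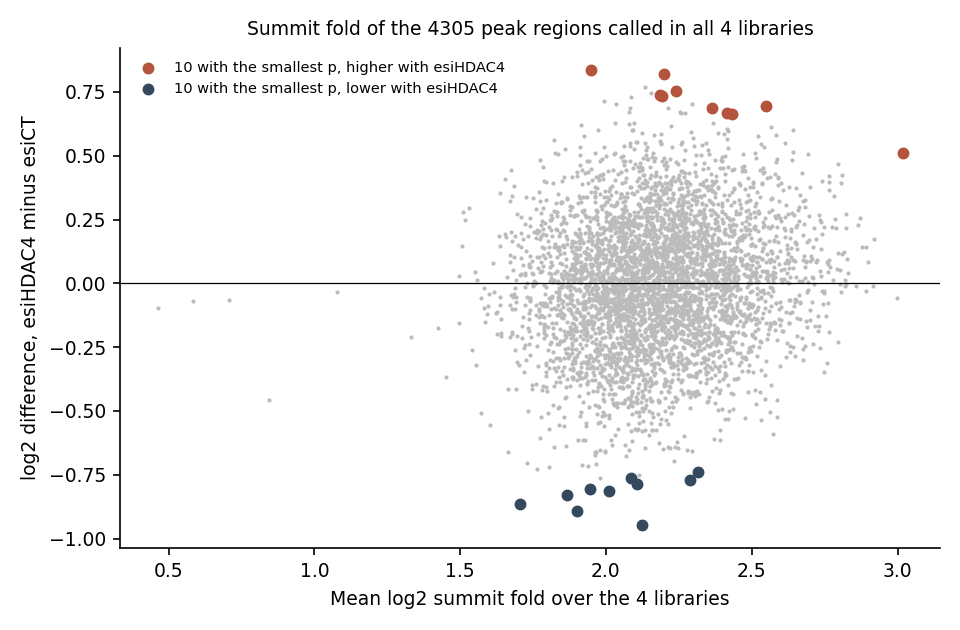
log2 difference of summit fold, esiHDAC4 minus esiCT, against the mean log2 summit fold over the 4 libraries, for the 4305 peak regions called in all of them. Each point is a region; red and blue points are the 10 higher and 10 lower regions with the smallest p, from 0.83 at MAN1B1 to -0.95 at RPL7L1, and none passed the adjusted threshold.

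Shared regions of the gene lists centred near 0. The median log2 difference was 0.00 over all 4305 regions, and -0.04 over 26 regions of p53 targets, -0.07 over 12 of the BCL2 family, -0.08 over 10 of the class IIa HDAC and MEF2 group, -0.05 over 37 of the immediate early and NR4A genes, 0.02 over 4 of the AP-1 genes and 0.01 over 27 of the WNT genes. The other 9 lists had medians between -0.05 and 0.14, the last resting on 1 NF-kB region. In each list no region passed the adjusted threshold.

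Whether the HDAC4 effect on summit folds depended on OXPT or on genotype was tested on regions called in all 8 libraries of each comparison. Of 3713 regions in the WT libraries, 0 (0%) had a different effect with OXPT than without it in limma, with a smallest adjusted p of 0.75 and 201 (5.41%) at an unadjusted p below 0.05. Of 1602 regions in the OXPT libraries, 0 (0%) had a different effect in WT than in FBXW7 KO cells, with a smallest adjusted p of 0.99 and 56 (3.5%) at an unadjusted p below 0.05. By the same merge, untreated WT cells gained 271 and lost 1424 peak regions with esiHDAC4, and FBXW7 KO cells under OXPT gained 212 and lost 777. For SE regions these were 4 gained and 100 lost, and 0 gained and 107 lost, beside the 63 gained and 5 lost of the OXPT-treated WT cells. No test of the difference between these counts was run.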

How the data were processed

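Per the labels and the study's methods, paired-end reads were trimmed with Trimmomatic 0.39, aligned to hg38 with Bowtie2 2.4.4, cleared of duplicates with SAMtools 1.18 and called as peaks per library with MACS2 2.2.7.1, and ROSE joined enhancers into SEs. In the deposited peak lists the authors give the summit fold as a ratio over local background, −log10 values of p and q, and an integer score from q. The deposited SE lists hold positions only, and although the study considered only SEs that also carried H3K4me1, it is not stated whether the deposited lists had passed that filter. The fold depends on depth through the background reads, solved here with a tolerance of 0.01 on −log10 p.

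Lists were merged at 1 bp overlap, without 134 peaks and 6 SEs on other contigs. A start-site region lay within 1 kb of a protein-coding gene start in GENCODE version 44. Numbers were compared by a two-sided exact permutation test within letters, which follows the study's model of replicate and condition. Presence calls, 2 against 2, had no test. limma 3.58.1 (R 4.3.3, trend, letter as block, Benjamini-Hochberg over all regions) was run on log2 of the highest summit fold, centred on each library's median. On simulated data for the 4305 shared regions it recovered 13% of regions changed by 1.5 times and 82% of those changed by 2 times. Changes near 1.5 times would thus mostly have been missed. Python 3.11.15, pandas 2.3.3, SciPy 1.17.1 and pysam 0.24.0 were used.

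The genes named are the 10 gained and 10 lost start-site and distal regions with the highest lower fold, the 10 longest gained SE regions and all lost ones, the 10 higher and 10 lower shared regions with the smallest p, and list genes assigned a switched region. TXNRD2, LBX1, BBC3, PMAIP1, HDAC5, HDAC7, MEF2C and the SE region of YBX3 were described after their values were seen. The members and lists were chosen with earlier results of these data known. The alternatives are given below. Some items that these rules pick are not reported here.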

Additional observations from a re-analysis of the deposited data

Results flagged for a closer look

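The number of SEs moved in opposite directions in pairs of groups under the same contrast, esiHDAC4 against esiCT, in both replicates of each. The log2 ratio was 0.87 in A and 0.67 in B in WT cells under OXPT, -0.57 and -0.71 in untreated WT cells, and -1.22 and -1.22 in FBXW7 KO cells under OXPT. In untreated FBXW7 KO cells, where the replicates went opposite ways, it was 0.97 and -2.04. The difference was not tested, because 2 pairs against 2 pairs allow no exact p below 0.333. These counts include short SEs: in esiHDAC4 replicate A of the OXPT-treated WT cells, 22.6% were under 5 kb. With SEs of at least 10 kb only, the ratio of replicate A was 0.19 in these cells. SE lengths also differed in the contrasted groups, to which the 10 kb limit was not applied. In FBXW7 KO cells under OXPT the median length in A and B was 10.7 kb and 9.15 kb with esiCT and 16.5 kb and 11.8 kb with esiHDAC4. In untreated WT cells it was 16.9 kb and 11.1 kb with esiCT and 16.1 kb and 15.6 kb with esiHDAC4.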

How the results depend on the processing

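The direction of the peak number comparison rested on replicate B: leaving out one pair gave a log2 ratio of -0.27 to 0.87, the lower being that of pair A alone, where the ratio was reversed. For SEs this range was 0.67 to 0.87. The exact tests with no replicate block, which exchanged labels over all 4 libraries, gave p = 1 for peaks (0.30) and p = 0.333 for SEs (0.77), and neither exact test could pass 0.05 with 2 against 2. With −log10 q of at least 10, 109 peak regions were gained and 6 lost, and the start-site shares were 20.2% and 0%. The shares were 38.9% and 38.8% with a window of 2500 bp and 40.2% and 40.1% with every transcript start. Leaving out each library in turn gave 1281 to 6604 gained and 946 to 8832 lost peak regions, and 86 to 381 gained and 18 to 65 lost SE regions. The side that lost a library then needed 1 call, or 1 absence, instead of 2. The 10 kb limit on SEs, chosen after seeing the data, gave 23 gained SE regions. Merging distance, 50% cover, equal list lengths, the common fold floor and a merge of all 16 lists kept the peak counts within 1.5 times, at 601 to 1051 gained and 324 to 443 lost.

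In the fits of summit fold the count of called regions was 0 with no replicate block, with no centring, with the mean fold and with all 16 libraries, also without any of the 4 libraries (0 to 0). Quantile normalization called 2 regions, and the fit to the 47 regions with −log10 q of at least 10 called 2; the cause was not tested. For the interaction with OXPT the counts were 0 to 1 when leaving out libraries, the 1 without WT esiCT OXPT replicate A, and 0 with no replicate block. For the interaction with genotype they were 0 to 0, and 0 with no replicate block. The letters pair the libraries only by label. With 2 pairs, the deviations of same-letter libraries had a correlation of 0.305 over the 4305 shared regions.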
